A study of Mus musculus with 5 samples.

Results

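A set of 10 genes of the natural killer (NK) cell receptor system was followed through single-cell RNA-seq of sorted mouse lung group 2 innate lymphoid cells (ILC2s): the receptor genes *Klrd1*, *Klrk1*, *Klrb1c*, *Klrc1*, *Klre1*, *Ncr1* and *Cd160*, the signalling adaptor genes *Fcer1g* and *Tyrobp*, and the granule membrane gene *Nkg7*. They were chosen by symbol, with earlier results of these data known. All 10 were present among the 27726 genes common to the 5 deposited matrices. NK receptors read ligands on other cells and either start or restrain killing and cytokine release. Most of them have no signalling motif of their own and pair with small adaptor proteins, of which DAP12 (*Tyrobp*) and the Fc receptor gamma chain (*Fcer1g*) carry the activating motif. These genes are typical of NK cells and ILC1s, some are also used by T cells, and *Fcer1g* and *Tyrobp* are broadly used by myeloid cells, while ILC2s are known instead for the IL-33 receptor ST2, encoded by *Il1rl1*.

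All libraries came from female C57BL/6 wild-type mice of 4 to 8 weeks, with 5 mice pooled in each. The naïve library (1) held fresh cells of mice without a tumour. The ta-non-activated libraries (2) held fresh cells of mice 2 and 3 weeks after TC1 cells, a mouse lung epithelial tumour line, were placed under the skin of the flank. The ta-activated libraries (2) held cells of the same 2 weeks after a further 7 days of culture with rhIL-2, IL-33 and TSLP, so that activation and culture cannot be told apart, and week and replicate are the same thing. Cells were sorted as lineage-negative, ST2+, CD127+, Thy1.2+ and CD45+, and the lineage panel included the T cell antigens CD3 and TCRβ and NK1.1, the product of *Klrb1c*. The weeks of a group come from lungs taken at different times, so p-values measure the spread between 2 pools that also differ in week, and whether cells before and after activation came from 1 pool is not given in the sources used here.

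A barcode was kept when it had 200 or more genes and mitochondrial counts below 5%: 6389 naïve cells, 1823 (week 2) and 1601 (week 3) ta-non-activated cells, and 2895 (week 2) and 3822 (week 3) ta-activated cells. Their median depth was 4396 to 16090 unique molecular identifiers (UMIs) per cell, with the naïve and the week 3 ta-non-activated library the shallowest. The summed level of 13 ILC2 marker genes in units of CPM (a gene's UMIs scaled to a common library total) was 1819 in the ta-non-activated library of week 3 and 8844 to 11895 in the others, and that library stood apart also in 9 T cell receptor and CD3 genes, at 6746 CPM against 305 to 1238 CPM. Pairs of libraries shared 1 to 8 cell barcodes. Marker lists of neutrophils and dendritic cells summed to at most 1.05 CPM in any library. A macrophage list summed to 31.1 to 222 CPM and was highest in the cultured libraries (208 and 222 CPM), mostly from *Ctss* (below). *Lyz2* was at 0 in both of these and *Marco* in all 5. A mast cell and basophil list summed to 3.62 to 121 CPM, with *Ms4a2* at 0 in all 5. It was highest in the week 2 ta-activated (121 CPM) and the week 3 ta-non-activated library (85.2 CPM). Endothelial genes summed to 402 CPM in the naïve library and 44.7 to 73.2 CPM elsewhere, epithelial genes to 292 CPM and 2.49 to 81.0 CPM, and B cell genes reached 132 CPM in week 3 before activation, and the part of such cells in the results below was not tested.

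The receptor genes of the Klr family (5 of the 10) lie together in the NK gene complex region of chromosome 6 (GRCm38): *Klrb1c* at chr6:128778485-128789215 (minus strand), *Klre1* at chr6:129577905-129585827 (plus), *Klrd1* at chr6:129591782-129598775 (plus), *Klrk1* at chr6:129610323-129623864 (minus) and *Klrc1* at chr6:129666015-129678973 (minus). The remaining members are spread over the genome, with *Tyrobp* at chr7:30413760-30417585 (plus), *Nkg7* at chr7:43437073-43438249 (plus), *Ncr1* at chr7:4337724-4345164 (plus), *Fcer1g* at chr1:171229572-171234365 (minus) and *Cd160* at chr3:96798763-96829351 (minus). The counts of *Klrc1* and *Klrb1c* are uncertain: 56.3% of the 50-base stretches at the 3′ end of *Klrc1* also occur in *Klrc2*, and *Klrb1c* shares exon bases with *Gm44511* on the same strand.

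The 250 bases upstream of the start were available from RefSeq (GRCm38.p6) for 8 of the 10 genes, with 11 promoters in all. As examples, 4 promoters of receptor genes are shown. Short motifs of 2 transcription factor families that act in NK cells were looked for on both strands, the RUNX letters TGTGGT (reverse ACCACA) and the T-box letters GGTGTGA (reverse TCACACC). The capitals mark RUNX matches, which all 4 windows shown hold. The other windows are not shown, among them 1 of *Klre1* (chr6:129578036-129578285) with no match of either kind.
Klrk1, chr6:129623865-129624114, minus strand: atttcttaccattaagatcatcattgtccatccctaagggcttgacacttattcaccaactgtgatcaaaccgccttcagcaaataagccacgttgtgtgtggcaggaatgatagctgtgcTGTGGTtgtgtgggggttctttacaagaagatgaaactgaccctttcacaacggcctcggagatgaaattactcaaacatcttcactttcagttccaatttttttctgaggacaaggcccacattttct
Klrc1, chr6:129678974-129679223, minus strand: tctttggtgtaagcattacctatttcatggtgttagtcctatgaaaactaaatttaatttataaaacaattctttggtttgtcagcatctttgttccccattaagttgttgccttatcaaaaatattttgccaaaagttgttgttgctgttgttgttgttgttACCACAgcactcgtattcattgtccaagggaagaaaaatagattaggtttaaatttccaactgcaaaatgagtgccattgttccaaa
Ncr1, chr7:4337474-4337723, plus strand: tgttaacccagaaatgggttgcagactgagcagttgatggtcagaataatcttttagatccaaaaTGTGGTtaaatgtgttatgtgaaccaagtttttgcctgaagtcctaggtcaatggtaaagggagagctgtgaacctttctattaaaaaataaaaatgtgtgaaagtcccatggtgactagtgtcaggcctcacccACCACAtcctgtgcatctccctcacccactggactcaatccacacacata
Cd160, chr3:96829352-96829601, minus strand: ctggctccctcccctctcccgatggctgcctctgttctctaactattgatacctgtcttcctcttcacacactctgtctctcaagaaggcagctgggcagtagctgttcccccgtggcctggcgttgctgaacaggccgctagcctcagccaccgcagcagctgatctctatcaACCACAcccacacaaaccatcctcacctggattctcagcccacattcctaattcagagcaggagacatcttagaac
A RUNX match was present in the promoters of 7 of the 8 genes (the exception was *Fcer1g*), and in 15.9% of the 27025 genes of the table. Counted by promoter it was 9 of 11, in which the windows of *Ncr1* overlap and hold the same matches, and 14.0% of all 32851 promoters. A T-box match was present in *Nkg7* and in the other promoter of *Cd160*, and in 3.84% of all genes. Matches describe letters in these windows and say nothing of binding.

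Levels are given as CPM, with exact Poisson 95% intervals that cover counting error only. *Klrd1* encodes CD94, the partner chain of the NKG2 receptors. Its level was 10.1 CPM in the naïve library, 0.632 and 3.30 CPM in ta-non-activated cells (week 2, then week 3, the order used throughout, and called before activation) and 16.1 and 0.388 CPM in ta-activated cells (called after activation). The week 2 ta-activated and the naïve libraries were thus high, and the intervals of the 2 lowest libraries overlapped. *Klrc1*, which encodes the inhibitory partner NKG2A, was at 5.71 CPM in the naïve library, 0.301 and 1.06 CPM before activation and 0.924 and 0 CPM after it. The naïve level was higher than in every other library, and the interval of the week 3 value before activation, which rested on 10 UMIs, overlapped those of both week 2 libraries. *Klre1*, an inhibitory or activating receptor of the same cluster depending on its partner, was at 3.06, 0.421, 0.745, 0.976 and 0.0162 CPM in the naïve, the 2 ta-non-activated and the 2 ta-activated libraries, the last of these being 1 UMI. In a library sum, fewer cells with a transcript and less of it per cell cannot be told apart, so numbers of cells are given further on.

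*Klrk1*, which encodes the activating receptor NKG2D for stress-induced ligands, was at 64.9 CPM in the naïve library, 1.81 and 4.47 CPM in the ta-non-activated and 10.8 and 0.534 CPM in the ta-activated libraries, and no 2 of the 5 intervals overlapped. *Ncr1*, which encodes the natural cytotoxicity receptor NKp46, was at 8.06 CPM, 0.572 and 0.532 CPM, and 2.09 and 0.0162 CPM in the same order. *Klrb1c*, whose product NK1.1 was in the panel used to remove cells, was at 3.95 CPM (128 UMIs in 81 cells) in the naïve library, 0.241 and 0.319 CPM before activation and 0.209 and 0 CPM after it. The 3 low *Klrb1c* values above 0 had overlapping intervals and rested on 3 to 12 UMIs, and the count of 0 in week 3 allows up to 0.0485 CPM. *Cd160*, which encodes a receptor for HVEM and class I molecules, differed from these in its order: it was highest in the week 2 ta-activated library at 12.7 CPM, followed by 3.46 CPM in the naïve, 2.24 and 1.78 CPM in weeks 3 and 2 before activation and 0.146 CPM in week 3 after it. The interval of the week 3 ta-non-activated library overlapped those of the naïve and the week 2 ta-non-activated library.

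*Fcer1g* was found in every library, at 44.8 CPM in the naïve library, 7.88 and 12.3 CPM in the ta-non-activated and 66.3 and 22.1 CPM in the ta-activated libraries, with no 2 intervals overlapping. *Tyrobp* was at 11.6 CPM, 1.69 and 1.92 CPM, and 11.8 and 0.178 CPM in the same order. The adaptors therefore parted in the week 3 ta-activated library, where *Fcer1g* had 1369 UMIs in 240 cells and *Tyrobp* had 11 UMIs in 7 cells. *Nkg7*, a granule membrane protein of cytotoxic lymphocytes, had another order: it was highest at 81.9 CPM in week 3 before activation, then 55.0 CPM in the naïve library, 20.1 CPM in week 2 after activation, 4.91 CPM in week 2 before it and 1.21 CPM in week 3 after it. In that week 3 library *Nkg7* was at 91.9 CPM in the 999 cells in which 3 or more of the 9 T cell receptor and CD3 genes had a UMI (called T cell receptor-positive below) and at 38.6 CPM in the rest.

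**Figure D1:**
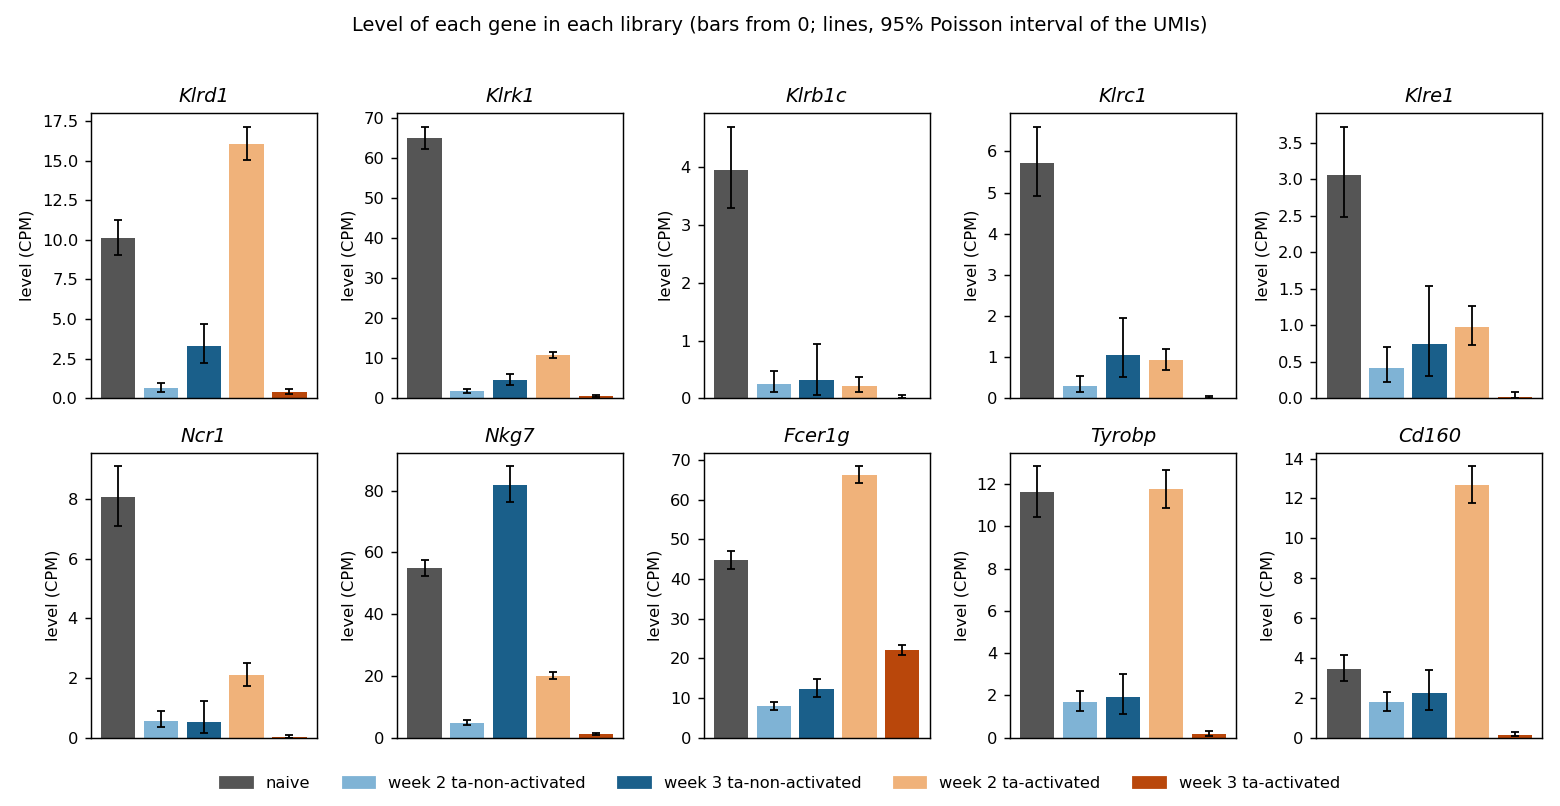
Level of each of the 10 genes in CPM (y axis, linear and starting at 0, with its own range for each gene) in the 5 libraries (coloured bars), with exact Poisson 95% intervals as lines. *Klrk1*, *Klrb1c*, *Klrc1*, *Klre1* and *Ncr1* were highest in the naïve library, *Klrd1*, *Fcer1g*, *Tyrobp* and *Cd160* in the week 2 ta-activated library, and *Nkg7* in the week 3 ta-non-activated library, and the week 3 ta-activated library was lowest for 9 of the 10 genes, *Fcer1g* being the exception.

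The naïve group has 1 library, so its ratios to the others have no replicate check. Against the week 3 ta-activated library the naïve level was 122-fold higher for *Klrk1*, 26.1-fold for *Klrd1*, 45.3-fold for *Nkg7* and 2.02-fold for *Fcer1g*, and at least 118-fold for *Klrc1* and at least 81.4-fold for *Klrb1c*, which had no UMI there (3 UMIs taken as the floor). Against the week 2 ta-activated library the naïve level was not higher for 4 members: the ratio was 0.631 for *Klrd1*, 0.676 for *Fcer1g*, 0.988 for *Tyrobp* and 0.273 for *Cd160*. The naïve matrix was also made with another version of Cell Ranger than the others, and the part of this in the ratios was not tested.

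For most members few cells held the UMIs, the exception being *Nkg7* in week 3 before activation, found in 363 of 1601 cells (22.7%). In the week 2 ta-activated library the 921 *Klrd1* UMIs came from 61 of 2895 cells, of which 11 held 50% of them, and the 3802 *Fcer1g* UMIs came from 167 cells, of which 25 held 50%. In the naïve library the 2104 *Klrk1* UMIs came from 618 of 6389 cells. To compare shares of cells at 1 depth, each cell with at least 2000 UMIs was thinned to 2000 UMIs, which left out 242 naïve and 14 to 108 cells of each other library. In the thinned naïve library 6.33% of cells had a *Klrk1* UMI (9.67% before thinning), 4.57% an *Nkg7* UMI, 2.64% an *Fcer1g* UMI and 1.01% a *Klrd1* UMI. For a cell type that should lack these genes, cells with UMIs of at least 3 of 10 endothelial genes were taken. In the 39 such naïve cells after thinning (median 4331 UMIs before it), none of the members was found except *Cd160* in 1 cell (2.56%), and 0 of 39 cells allows a share of up to 7.69%. Before thinning 107 cells were in this class (median 5294 UMIs), with *Klrk1* in 4.67% of them against 9.67% of all naïve cells, but *Nkg7* in 8.41% against 7.07% and *Fcer1g* in 5.61% against 3.51%. Before thinning the share of all naïve cells with an *Nkg7* or *Fcer1g* UMI was thus not above that of this class. The class was then deeper than all naïve cells (median 4517 UMIs). At equal depth neither gene was found in the 39 cells. These are too few to tell whether the naïve shares (4.57% and 2.64%) are above those of the class. Free RNA and doublets were not tested as a part of these shares.

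The sort required ST2, yet a UMI of *Il1rl1*, which encodes it, was found in 80.9% of naïve cells, 48.3% and 25.2% of ta-non-activated cells and 15.0% and 45.5% of ta-activated cells. Each library was therefore split into cells with and without an *Il1rl1* UMI, a split that depends on depth: median UMIs with and without were 4631 and 4117 in the naïve library and 23410 and 12605 in the week 2 ta-activated library, while in the week 3 ta-non-activated library they were 2948 and 5225. A cell without a UMI is not shown to lack the transcript.

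In the naïve library all 10 members were higher in the cells without *Il1rl1* UMIs, and all 10 pairs of intervals were apart. For all genes such shares were not counted within single libraries. The numbers of members higher or apart, here and in the other libraries below, are therefore descriptions only. Among the receptors, *Klrd1* was at 1.82 CPM with and 50.9 CPM without *Il1rl1* UMIs, *Klrk1* at 18.0 and 296 CPM, *Klrb1c* at 0.743 and 19.7 CPM, *Klrc1* at 0.706 and 30.3 CPM, *Klre1* at 0.223 and 17.0 CPM, *Ncr1* at 1.30 and 41.2 CPM, and *Cd160* at 0.929 and 15.9 CPM. The adaptors had the same order, *Fcer1g* at 8.14 and 225 CPM and *Tyrobp* at 1.52 and 61.1 CPM, as did *Nkg7* at 16.3 and 245 CPM. The ratio ran from 15.0 for *Nkg7* to 76.1 for *Klre1*. *Gata3*, which encodes the transcription factor that ILC2s depend on, went the other way, at 856 CPM with and 407 CPM without *Il1rl1* UMIs. In the other libraries it was at 342 and 330 CPM (week 2) and 606 and 121 CPM (week 3) before activation, and at 508 and 589 CPM (week 2) and 950 and 847 CPM (week 3) after it, so in week 2 after activation its order was that of the members. Among naïve cells that were not T cell receptor-positive (4026 with and 685 without *Il1rl1* UMIs), all 10 members were again higher without. *Klrd1* was there at 0.461 and 55.5 CPM, *Klrk1* at 10.9 and 262 CPM, *Ncr1* at 0.614 and 72.9 CPM, *Cd160* at 0.716 and 15.5 CPM, *Nkg7* at 10.8 and 271 CPM, *Fcer1g* at 5.73 and 351 CPM and *Tyrobp* at 1.13 and 99.7 CPM. After thinning the order of the shares was kept for the members named here: 1.73% of naïve cells with and 16.0% without *Il1rl1* UMIs had a *Klrk1* UMI, 1.30% and 11.5% an *Nkg7* UMI, 0.456% and 7.22% an *Fcer1g* UMI, and 0.168% and 2.78% a *Klrd1* UMI.

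Before activation few intervals were apart. In week 2, 6 of the 10 members were higher without *Il1rl1* UMIs and 2 had intervals that were apart, *Fcer1g* (3.57 CPM with and 12.9 CPM without) and *Cd160* (1.01 and 2.68 CPM). In week 3, 9 of 10 were higher without, and the intervals were apart for *Nkg7* (18.2 and 92.3 CPM) and *Fcer1g* (3.03 and 13.9 CPM). In the same split of that library the T cell receptor and CD3 genes summed to 1658 and 7578 CPM and the ILC2 genes to 6008 and 1133 CPM, and their part in the difference was not tested. With 403 shallow cells in the *Il1rl1* group of that library a count of 0 allows up to 2.27 CPM, so for the receptors, at 3 to 42 UMIs in the whole library, a difference was mostly not detectable at this depth.

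In the week 2 ta-activated library all 10 members were again higher without *Il1rl1* UMIs, 8 with intervals apart, with *Klrd1* at 2.80 and 20.7 CPM, *Cd160* at 2.14 and 16.4 CPM, *Klrk1* at 4.01 and 13.2 CPM, *Fcer1g* at 31.4 and 78.6 CPM and *Tyrobp* at 6.14 and 13.7 CPM. These are sums over cells of unequal depth. With each cell thinned to 2000 UMIs before the split, 135 cells had an *Il1rl1* UMI, and the shares of cells with a member's UMI had overlapping intervals: 0.741% with and 1.19% without for *Klrd1*, 1.48% and 1.64% for *Nkg7*, and 2.96% and 3.65% for *Fcer1g*. With thinning to 1000 UMIs the order turned for *Klrd1* (1.14% and 0.794%), *Nkg7* (1.14% and 1.01%) and *Tyrobp* (1.14% and 0.542%), each with 1 of 88 cells in the *Il1rl1* group. A difference between the shares was thus not detectable at equal depth in that library. Week 3 after activation had 5 of 10 members higher without. *Klrd1* had no UMI in the 1738 cells with *Il1rl1* and was at 0.775 CPM in the 2084 cells without it. With 3 UMIs taken as the floor this was at least 7.98-fold higher, but the 24 UMIs came from 9 cells, 1 of which held 11. *Nkg7* was at 0.453 and 1.97 CPM. At 2000 UMIs the shares of cells were 0% with and 0.269% without for *Klrd1*, and 0.135% and 0.370% for *Nkg7*. Their intervals overlapped, so a difference was not detectable at equal depth for these 2 genes either. The *Fcer1g* level was there higher in cells with *Il1rl1*, at 25.2 CPM against 19.1 CPM without, a ratio of 0.758 (95% interval 0.680 to 0.844). The share of cells did not keep that order when thinned: at 2000 UMIs 2.16% of cells with (16 of 742) and 3.36% without had an *Fcer1g* UMI, and at 1000 UMIs 1.35% and 1.83%, with overlapping intervals. No direction of *Fcer1g* is therefore read from that library.

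**Figure D2:**
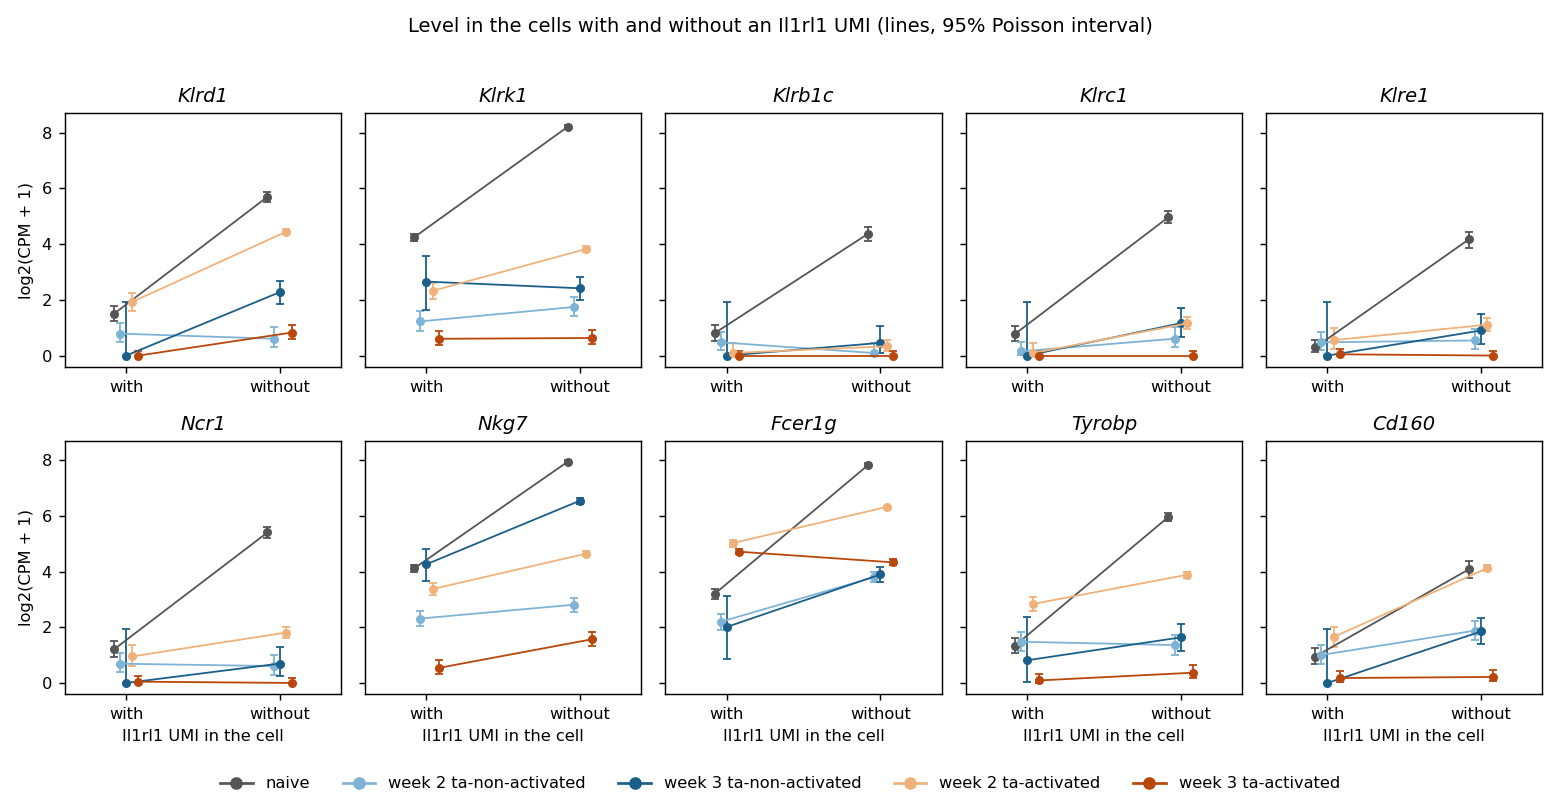
Level of each gene as log2(CPM + 1) (y axis) in the cells with and the cells without an *Il1rl1* UMI (x axis), with a coloured line for each of the 5 libraries and exact Poisson 95% intervals. The naïve lines rise steeply for all 10 genes, and the *Fcer1g* line of the week 3 ta-activated library slopes down, an order that the thinned shares of cells did not keep.

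Over the 5 libraries, cells without and with *Il1rl1* UMIs were compared on the summed counts, by the quasi-likelihood test of edgeR and with the library as a block. Of 11356 genes tested none passed an adjusted p of 0.05 (0% of genes), 1005 (8.85%) had an unadjusted p under 0.05, and DESeq2 called 99 (0.872%). *Klrb1c*, *Klrc1* and *Klre1* were not tested because their counts were too low, and the 7 others may have passed that filter through the cells in which they are high, so their number is no evidence by itself. On the log2 scale *Klrd1* was 3.12 ± 0.78 (SE, n = 5 libraries) higher without *Il1rl1* UMIs, with a 95% interval of 1.27 to 4.97 and an edgeR adjusted p of 0.544. *Cd160* was 2.58 ± 0.52 higher and *Nkg7* 2.00 ± 0.44 higher, both with an edgeR adjusted p of 0.544. These 3 were the members that DESeq2 called, with adjusted p-values of 0.0183 for *Klrd1*, 0.0153 for *Cd160* and 0.00395 for *Nkg7*, so the call depends on the tool. The fitted log2 differences of *Klrk1* (1.70), *Ncr1* (2.22), *Fcer1g* (1.76) and *Tyrobp* (1.97) passed in neither tool. Without the naïve library the differences were smaller for all 7, at 2.34 for *Klrd1*, 2.07 for *Cd160*, 1.49 for *Nkg7*, 1.02 for *Fcer1g*, 0.81 for *Tyrobp*, 0.76 for *Klrk1* and 0.71 for *Ncr1*, with edgeR adjusted p-values of 0.705 to 0.720.

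Transcripts of the members were found together in the same cells. Pairs of receptor genes, and of receptor and adaptor genes, are given first as a description. Not all of these pairs are partners in a known complex. Of 68 naïve cells with *Klrc1* UMIs 64.7% also had *Klrd1*, its partner chain, against 0.949% of the other cells, and of 28 cells with *Klre1* 89.3% had *Klrd1*. Of 70 naïve cells with *Ncr1*, whose product signals through the Fc receptor gamma chain, 94.3% had *Fcer1g* against 2.50% of the others, and 35 of the 70 had *Tyrobp*. Of 618 naïve cells with *Klrk1*, 22.8% had *Fcer1g* and 7.93% had *Tyrobp*. The gene *Hcst*, which encodes DAP10, an adaptor of NKG2D, was not among the members. In the week 2 ta-activated library 38 of 40 cells with *Ncr1* had *Fcer1g* against 4.52% of the others, and 92.5% had *Cd160*. All 7 cells of that library with *Klrb1c* had *Klrd1*, *Klrk1*, *Ncr1*, *Nkg7*, *Fcer1g* and *Cd160*, but these cells had a median of 40367 UMIs against 13616.5 UMIs in the others. Cells with at least 2 of the 7 receptors had a median of 5246.5 UMIs in the naïve library (4517 in all cells) and of 21910 UMIs in the week 2 ta-activated library (13636 in all cells), and the part of depth and of doublets in these shares was not tested.

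**Figure D3:**
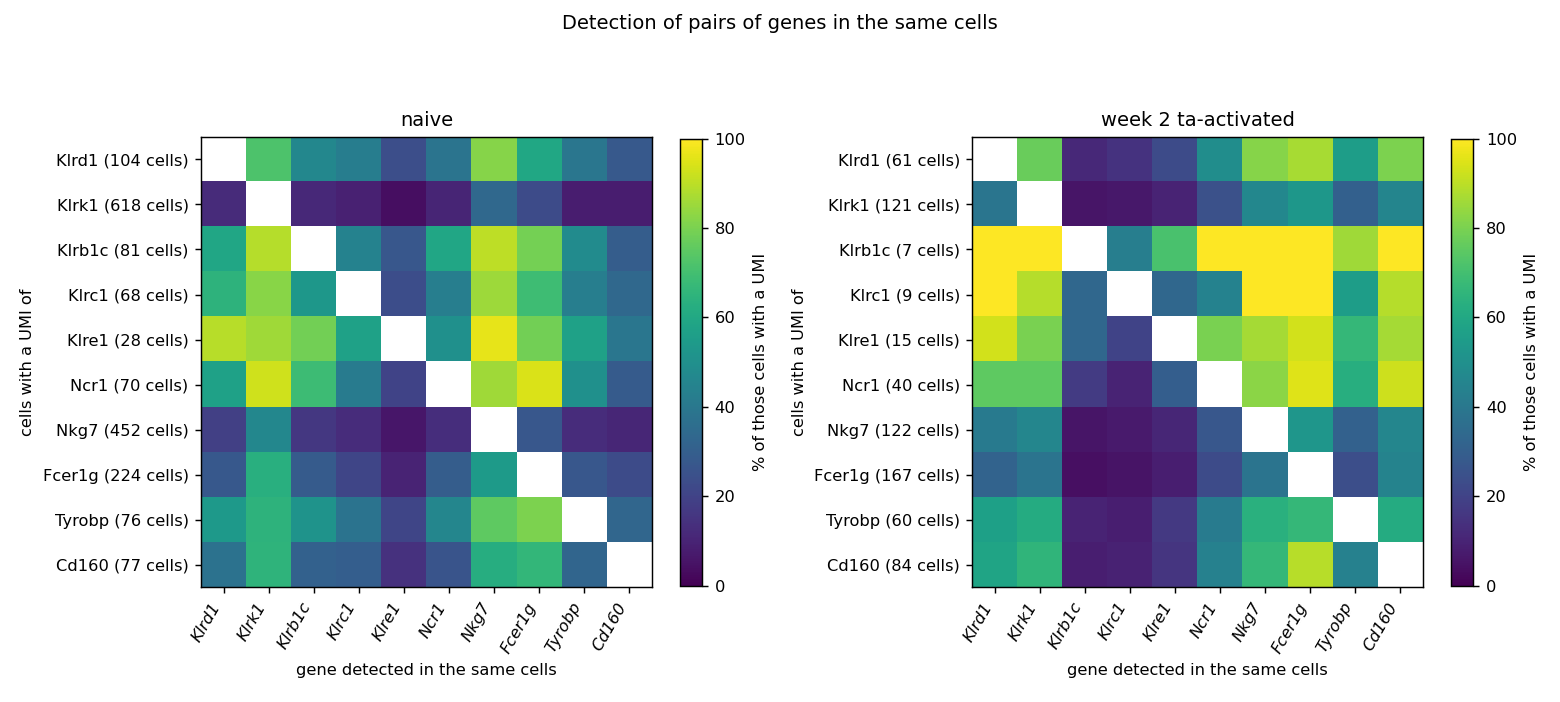
Share, as a colour from 0 to 100%, of the cells with a UMI of one gene (rows, with their number) that also had a UMI of another (columns), in the naïve and in the week 2 ta-activated library. In the rows of *Klrb1c*, *Klrc1*, *Klre1* and *Ncr1* the columns of *Klrk1*, *Nkg7* and *Fcer1g* are bright in both libraries, whereas the row of *Klrk1*, the gene found in the most naïve cells (618), is dark in the naïve library and brighter in the other (52.9% with *Fcer1g*).

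Cells with UMIs of at least 2 of the 7 receptor genes numbered 154 of 6389 (2.41%) in the naïve library, 9 and 8 before activation, and 75 of 2895 (2.59%) and 1 after activation. Their receptor levels are fixed by that choice, but *Nkg7* and the adaptors were not used for it. In the naïve library these cells held 47.7% of all *Nkg7* UMIs, 57.3% of *Fcer1g* and 73.1% of *Tyrobp*, and in the week 2 ta-activated library 78.8%, 80.6% and 96.1%. *Il1rl1* UMIs were found in 28 of the 154 (18.2%) and in 8 of the 75 cells (10.7%). UMIs of at least 3 T cell receptor and CD3 genes were found in 70 of the 154 and in 65 of the 75 cells. In the whole naïve library 4026 of 5167 cells with and 685 of 1222 cells without *Il1rl1* UMIs were outside this class. In the week 2 ta-activated library it was 277 of 434 and 1903 of 2461 cells.

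Other genes of these cells, chosen after their values were seen, are given as values. In the 154 naïve cells *Tbx21*, which encodes the type 1 lymphoid factor T-bet, was at 152 CPM against 2.17 CPM in the 5629 naïve cells without any receptor or adaptor UMI, *Xcl1*, a chemokine gene of NK cells, at 589 against 1.48 CPM, and *Gata3* at 209 against 841 CPM. *Eomes*, an NK cell factor, was at 19.5 CPM in them, and *Gzma* at 458 CPM came from only 12 cells, which held 99.3% of its UMIs in the library. In the 75 week 2 ta-activated cells *Gzmc*, a granzyme gene, was at 23032 CPM, 98.0% of its UMIs in the library, and *Gzmb* was at 5289 CPM against 1034 CPM in the cells without receptor or adaptor UMIs. *Tbx21* was at 4.19 CPM in them. Of the T cell genes, *Cd3g* was at 2766 CPM there against 120 CPM, but *Cd3e* was at 10.0 CPM and *Trac* at 3.77 CPM. These genes do not stand for the whole T cell receptor and CD3 list, whose other levels are not given here. UMIs of at least 3 genes of that list were found in most of the 75 cells (above). The type 2 cytokine gene *Il13* was at 2204 CPM in them against 3601 CPM in the cells without receptor or adaptor UMIs, with UMIs in 37 of the 75 cells, a level that was not told apart from free RNA, and *Gata3* at 205 against 598 CPM. Of the mast cell and macrophage lists, *Ms4a2*, *Fcer1a*, *Lyz2*, *Csf1r* and *C1qa* were at 0 in the whole library. The genes that made up most of these lists there were *Mcpt8*, at 3.77 CPM in the 75 cells and 119 CPM in the cells without receptor or adaptor UMIs, and *Ctss*, at 116 and 216 CPM.

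*Fcer1g* was also found apart from the receptors. Cells with an *Fcer1g* UMI and no receptor UMI numbered 63 in the naïve library, 29 and 39 before activation, and 82 and 233 after activation. In the week 3 ta-activated library these 233 cells held 96.3% of the *Fcer1g* UMIs, but 3774 of all 3822 cells there had no receptor UMI. They had *Gata3* at 888 CPM against 902 CPM in the cells without receptor or adaptor UMIs, *Il13* at 5180 against 4264 CPM and *Il5*, another type 2 cytokine gene, at 928 CPM, and 119 of them (51.1%) had an *Il1rl1* UMI. *Tyrobp* was at 0.778 CPM in them. Of the macrophage and mast cell lists, *Lyz2*, *Ms4a2* and *Fcer1a* were at 0 in the whole library, *Ctss*, which made up most of the macrophage sum, was at 224 CPM in the 233 cells and 220 CPM in the cells without receptor or adaptor UMIs, *Cd68* at 1.17 and 1.26 CPM and *Mcpt8* at 0.389 and 1.07 CPM. Most of the *Fcer1g* of that library was therefore measured in cells with ILC2 transcripts. That they had no receptor UMI was fixed by their choice, and it held for most cells of the library.

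**Figure D4:**
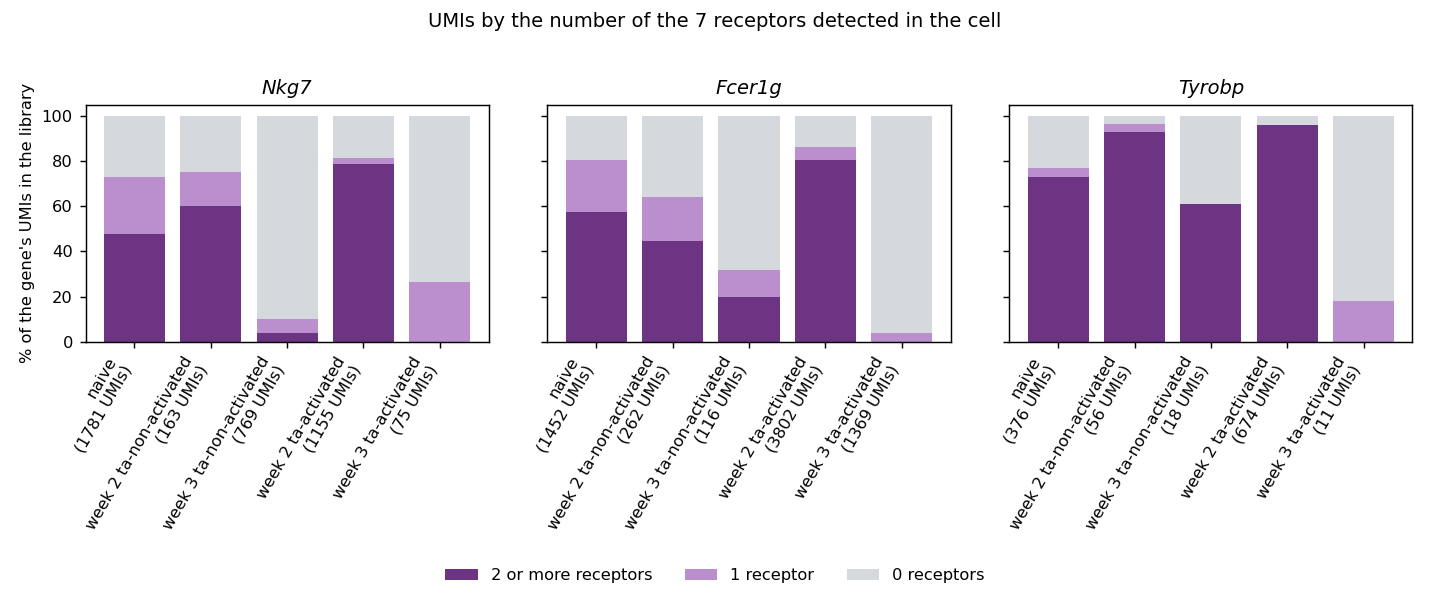
Share of the UMIs of *Nkg7*, *Fcer1g* and *Tyrobp* (y axis, percent of the gene's UMIs in the library) that came from cells with 0, 1, or 2 or more of the 7 receptor genes (stacked colours) in each of the 5 libraries (x axis, with the number of UMIs). Cells with 2 or more receptors held 80.6% of the *Fcer1g* UMIs in the week 2 ta-activated library and 0% in week 3, where there was only 1 such cell.

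Cells with T cell receptor and CD3 transcripts held much of the week 2 ta-activated signal. The class rests on UMIs of at least 3 genes, so it depends on depth, and its cells are not shown to be T cells. Leaving it out of that library lowered the median UMIs from 23410 to 17741 with *Il1rl1* UMIs. Without *Il1rl1* UMIs the median went from 12605 to 11742. The part of depth in the levels below was not tested. *Klrd1* was there at 44.1 CPM in T cell receptor-positive cells and at 0.381 CPM in the rest, and *Fcer1g* at 144 and 22.8 CPM, while *Klrb1c*, *Klrc1* and *Klre1* had no UMI in the rest. In the naïve library the members were divided: *Klrk1* was at 117 CPM in T cell receptor-positive cells and 40.9 CPM in the rest, but *Ncr1* was at 5.49 and 9.24 CPM and *Fcer1g* at 40.3 and 46.9 CPM. The naïve *Ncr1* and *Fcer1g* levels were thus as high without the T cell receptor-positive cells.

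Ta-activated and ta-non-activated libraries were compared 2 against 2 with edgeR's quasi-likelihood test, which asks how the genes change with activation in culture. Of 12643 genes tested none passed an adjusted p of 0.05 (0%), 2120 (16.8%) had an unadjusted p under 0.05, and DESeq2 called 1037 (8.2%). All 10 members were tested and none passed. Of the 10, 1 gene had an unadjusted p under 0.05 and was called by DESeq2, 10% of the members in each case, which is near the shares of all genes. The log2 difference was positive for 6 and negative for 4 (positive for 49.2% of all genes), without a test of the list, and the median was 0.84 against -0.02 over all genes tested. The 1 gene was *Fcer1g*, at 7.88 and 12.3 CPM before and 66.3 and 22.1 CPM after activation, without overlap. Its log2 difference was 2.07 ± 0.64 (SE, n = 2 and 2 libraries; 95% interval 0.38 to 3.76), with an edgeR adjusted p of 0.261 and a DESeq2 adjusted p of 0.0481. Without the T cell receptor-positive cells the *Fcer1g* difference was -0.09. The *Fcer1g* levels were then 4.65 and 42.5 CPM before and 22.8 and 24.3 CPM after activation. The week 3 value before activation, which rose from 12.3 CPM, rested on 75 UMIs. In cells with *Il1rl1* UMIs alone the *Fcer1g* difference was 2.87 with an edgeR adjusted p of 0.228.

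Of the other 9 members, 8 had levels that overlapped between the groups. *Klrb1c* did not, but rested on at most 12 UMIs in a library. The share of all genes without overlap was not counted, so the lack of overlap of *Fcer1g* and *Klrb1c* is a description only. *Klrd1* had a log2 difference of 2.14 with an interval from -2.44 to 6.71, and *Nkg7* one of -1.97 with an interval from -6.43 to 2.50. For 4 of the 7 receptors and for *Tyrobp* the sign rested on the week 2 ta-activated library: without it the difference was -2.32 for *Klrd1*, -2.58 for *Klrk1*, -4.89 for *Ncr1*, -3.38 for *Tyrobp* and -3.82 for *Cd160*, and with it 2.14, 0.85, 0.83, 1.66 and 1.62. For *Nkg7* it was the week 3 ta-non-activated library, without which the difference was 0.90. With 2 libraries a group that differ this much, neither a change of these genes with activation nor its absence was detectable.

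**Figure D5:**
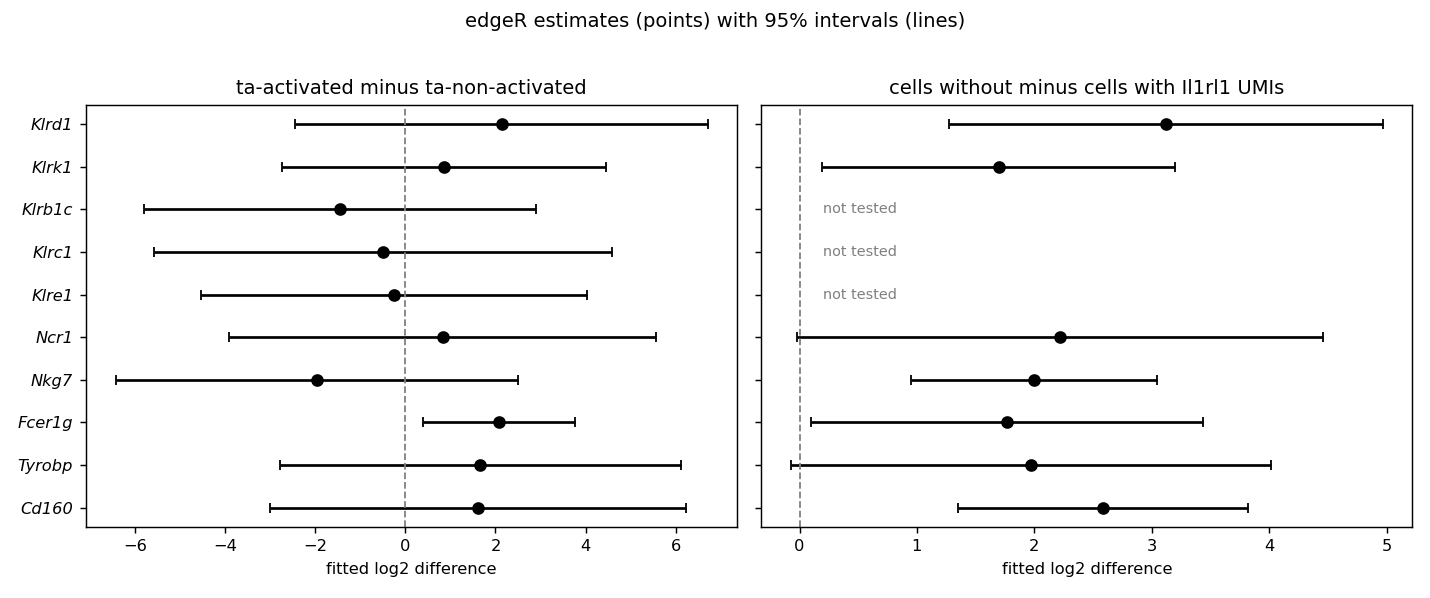
Fitted log2 differences with 95% intervals of the members, ta-activated minus ta-non-activated and cells without minus cells with *Il1rl1* UMIs. With activation the interval of *Fcer1g* alone leaves out 0 (0.38 to 3.76), and in the split those of *Klrd1*, *Nkg7*, *Cd160*, *Klrk1* and *Fcer1g* do (starting at 1.27, 0.95, 1.35, 0.19 and 0.10), with 3 genes not tested and no gene past an adjusted p of 0.05.

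The *Il1rl1* split was also set against activation, as an interaction. Of 12280 genes none passed in edgeR (0%), 183 (1.49%) had an unadjusted p under 0.05 and DESeq2 called 1 (0.00814%). Of the 9 members tested none had an unadjusted p under 0.05. The lowest belonged to *Fcer1g*, whose split was smaller in the ta-activated libraries by a log2 difference of -1.45 ± 0.69 (95% interval -3.20 to 0.30, edgeR adjusted p of 1).

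Other genes of the receptor system were counted from lists, with 0 past the threshold in edgeR in each list and both comparisons, so up to 4 genes a list with the largest fitted log2 difference are considered and those called by DESeq2 are named as well (after their values were seen). Over all genes DESeq2 called 8.2% with activation and 0.872% in the split, and 49.2% and 47% had a positive difference. Of 20 other receptor genes of the NK gene complex only 4 had enough counts for the activation test, none with an unadjusted p under 0.05 or a DESeq2 call, and 3 for the split, 2 with such a p. In the split *Klrb1f*, an activating receptor gene of the Klrb1 family, had a log2 difference of 2.45 and was called by DESeq2, while *Klrg1*, a receptor gene that ILC2s are known to use, had -1.47. Of 13 other NK surface receptor genes 12 were tested with activation, 2 with an unadjusted p under 0.05. Both were called by DESeq2, *Slamf6* at -5.79 and *Il18r1*, a subunit of the IL-18 receptor, at 2.60. In the split *Cd7* (2.86) was the 1 called by DESeq2 of 9 tested.

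Downstream, 19 adaptor and kinase genes were tested with activation, where 13 had a positive and 6 a negative log2 difference. DESeq2 called 3 of them, 1 as higher and 2 as lower. They were *Zap70*, the T cell receptor kinase gene *Lck* (-4.31) and the zeta chain gene *Cd247* (-3.76), while *Sh2d1a* had -8.53 without a call. In the split *Lck* (1.29) was the 1 called of 17. The week 3 library before activation, which stood apart in T cell receptor genes, is 1 of the 4 in this comparison, and its part in these differences was not tested. Of the ligand genes of the members or of other receptors of their families 5 of 9 were tested. DESeq2 called *Clec2d*, a ligand gene of the Klrb1 family, with activation (2.20) and *Clec2i* in the split (1.42).

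Of 12 granule and chemokine genes 10 were tested with activation, and *Gzmc* (8.34) and *Gzmb* (6.30) were called by DESeq2 as higher and *Ccl4* (-3.58) as lower. In the split 8 of 9 had positive differences, led by *Xcl1* (2.06), with no DESeq2 call. Of 10 NK transcription factor genes none was called in either comparison (8 and 7 tested), and all 7 had negative differences in the split, *Zeb2* at -0.71 and *Id2* at -0.69. By level, *Tbx21* and *Eomes* together went the other way in the naïve library, at 2.71 CPM with and 46.7 CPM without *Il1rl1* UMIs. In the other libraries their sum was at most 0.619 CPM in either part. Summed, 12 NK or ILC1 marker genes outside the members, these 2 included, were at 78.2 and 861 CPM in the naïve library. Before activation the sums were 36.7 and 67.3 CPM (week 2) and 160 and 755 CPM (week 3), again higher without. After activation they were higher with *Il1rl1* UMIs, at 134 and 66.1 CPM (week 2) and 221 and 97.2 CPM (week 3). The medians of the 6 lists ran from 0.22 to 1.18 with activation and from -0.37 to 1.02 in the split, against -0.02 over all genes in both.

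Over the 10 sums (5 libraries, with and without *Il1rl1* UMIs) the genes most like each member were found by Pearson's r of log2(CPM + 1) among 9218 genes with a mean of at least 5 CPM. The sums share libraries and the *Il1rl1* split, so r is a description. *Klrb1f* and *Xcl1* came up for several members: for *Klrd1* r was 0.963 and 0.938, for *Tyrobp* *Xcl1* had 0.976 and for *Cd160* 0.923. *Car2* was nearest to *Klrc1* (0.978) and *Ncr1* (0.963), *Fstl4* to *Klrb1c* (0.979), *Rasa3* to *Klrk1* (0.970), *Cd2* to *Nkg7* (0.946) and *Jaml* to *Fcer1g* (0.958). Among the members themselves *Klrc1* and *Klre1* were the most alike (0.984) and *Nkg7* and *Fcer1g* the least (0.440).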

How the data were processed

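Single-cell RNA-seq (10x Genomics, 3′ tags) of sorted ILC2s gave 5 libraries. Raw counts of UMIs for each gene and barcode were deposited by the authors, without normalization. File headers name Cell Ranger 6.0.0 (naïve) and 3.0.2 (others), and the submitters' processing notes name Cell Ranger 3.0.2, Seurat 3 and GRCm38. The members and gene lists were chosen with earlier results of these data known. The study tested cells, but cells are not replicates, so here counts were summed per library. A barcode was kept with 200 or more genes and mitochondrial counts below 5% (16530 of 18628), over 27726 common genes. No doublet caller was run. Tests used edgeR 4.0.16 (filterByExpr, TMM, quasi-likelihood F test) in R 4.3.3, with Benjamini-Hochberg adjustment over all genes tested and a threshold of 0.05. DESeq2 1.42.0 was an alternative. The edgeR fits were tested on simulated data, in which 198 (activation, 12852 genes) and 200 (*Il1rl1* split, 11378 genes) of 200 changed genes were recovered, with 4 and 13 false calls. The median fitted log2 differences of the genes set higher and lower were 2.00 and -2.06 (activation) and 1.96 and -2.02 (split). Recovery at the spread between libraries and the low counts of the members was not tested. Intervals of levels are exact Poisson and of shares Clopper-Pearson, at 95%, and a count of 0 is given the limit of 3 counts. Positions are GENCODE M21 on GRCm38 (27639 of 27726 identifiers matched). The genes named were the 10 members, in each list the genes past the threshold or up to 4 with the largest fitted difference, and the 3 genes most like each member (mean of at least 5 CPM, pseudocount 1), of which those shared or nearest are printed. Python 3.11.15, numpy 2.4.6, scipy 1.17.1, pandas 2.3.3 and matplotlib 3.10.9 served the other steps. With 1 library, the naïve group entered no test between groups.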

Additional observations from a re-analysis of the deposited data

How the results depend on the processing

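In the *Il1rl1* split the members tested kept their direction in all 92 alternative values computed. These values come from overlapping fits of the same libraries, for members that may have passed the filter through the cells in which they are high. *Klrb1c*, *Klrc1* and *Klre1*, without a main fit, are not among them. The share of all genes that kept their direction was not counted, so this is a description only. Within single libraries not all members were higher without (above). The numbers of genes past the threshold were 0 and became, with activation, 1037 under DESeq2 and 0 to 1646 with 1 library left out, of which 1646 without the week 2 and 513 without the week 3 ta-non-activated library. In the split *Klrc1* passed with all genes of at least 1 count (log2 difference 4.34, edgeR adjusted p of 0.0228), but lacked the counts for the main fit. Its UMIs lay mostly in the naïve (19 with and 166 without *Il1rl1* UMIs) and week 2 ta-activated libraries (1 and 52). This call is therefore no evidence by itself. The numbers past the threshold in the split became 99 under DESeq2, 27 with all genes of at least 1 count and 2 without the top 5% of cells by UMIs. In the interaction they became 1 under DESeq2, 6 without T cell receptor-positive cells and 0 to 1285 with 1 library left out (1285 without the week 2 ta-non-activated library). With activation, fitted log2 differences changed sign without the T cell receptor-positive cells for *Klrd1* (-1.88), *Klrk1* (-2.26), *Ncr1* (-2.37), *Fcer1g* (-0.09) and *Tyrobp* (-2.40), and in cells with *Il1rl1* UMIs for *Klrk1* (-0.44) and *Ncr1* (-0.31). The replicate numbers mark weeks, and the deviations of same-week libraries from their group means had a correlation of -0.06 over 12643 genes. With 2 libraries a group, the deviations of 1 week are those of the other with the sign turned. The correlation therefore cannot show whether libraries of a week came from 1 pool. With week as a replicate block 0 genes passed, and the sign changed for *Klrk1* (-0.29), *Ncr1* (-0.85), *Tyrobp* (-0.22) and *Cd160* (-0.43). Without the library block in the split 0 genes passed. With 1 library left out the activation differences ran from -2.32 to 3.48 for *Klrd1*, -2.58 to 1.79 for *Klrk1*, -7.51 to 0.49 for *Klrc1*, -4.92 to 0.73 for *Klre1*, -4.89 to 1.84 for *Ncr1*, -5.14 to 0.90 for *Nkg7*, -3.38 to 2.65 for *Tyrobp* and -3.82 to 2.61 for *Cd160*. The interaction changed sign with status called after thinning for *Klrd1* (-4.79), *Ncr1* (-7.05), *Nkg7* (-2.00) and *Tyrobp* (-8.84), without T cell receptor-positive cells for *Klrk1* (-1.65), and under DESeq2 for *Klre1* (-0.82) and *Cd160* (-0.02). With 1 library left out it ran from -6.16 to 5.98 for *Klrd1*, -0.16 to 1.68 for *Klrk1*, -3.81 to 1.70 for *Klrc1*, -6.16 to 0.77 for *Klre1*, -5.48 to 1.42 for *Ncr1*, -0.61 to 0.99 for *Nkg7*, -0.03 to 1.84 for *Tyrobp* and -6.16 to 1.14 for *Cd160*. The cause of these changes was not tested. Leaving out T cell receptor-positive cells moved 28 of 48 levels by over 1.5 times. Receptor levels in the week 3 libraries rest on few UMIs, which limits them.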
